A study of Mus musculus with 8 samples.

Results

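SR proteins, their CLK and SRPK kinases and the proteins of nuclear speckles form a group of pre-mRNA splicing regulators, and 37 of their genes were followed in hearts of mice with autoimmune myocarditis. The members were taken by symbol from a list of 37 names, and all 37 had values among the 18835 genes of the deposited table that do. The list was put together with the difference between the groups already known, so the fold changes of its members are given as a description and support nothing beyond it. The VEGF-C group held 4 hearts of animals given VEGF-C C156S (a variant that signals through VEGFR-3, the receptor of lymphatic endothelium) at 1 µg per day into the peritoneum from day 7 to day 10. The PBS group held 4 hearts of animals given the buffer over the same days. All 8 animals were male BALB/cAJcl mice aged 10 weeks that had been immunized with cardiac myosin, and hearts were collected in week 3, so both groups carried the disease and neither shows a healthy heart. RNA came from heart tissue, although the title of the study names lymphatic endothelial cells. Over the 8 libraries the 9 cardiomyocyte markers summed to between 2836060 and 4244990 normalized counts. The 7 lymphatic endothelial markers summed to between 14653 and 30135.

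SR proteins carry an RNA-recognition domain and a tail rich in arginine and serine, the RS domain, with which they bring the splicing machinery to exons. SRPK kinases phosphorylate this tail in the cytoplasm and let the proteins enter the nucleus, and CLK kinases phosphorylate it further and release them from speckles, the storage sites of splicing factors. Many genes of this group limit their own output: they hold poison exons or introns that stay in the transcript, which send the RNA to decay or keep it in the nucleus. Heart muscle relies on regulated splicing of its sarcomere and calcium-handling genes.

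Libraries held between 53.7 and 65.2 M reads in the VEGF-C group and between 61.7 and 76.8 M in the PBS group. PBS library 1 lay apart from the other libraries along the second principal component, which held 19.7% of the variance. Mitochondrially encoded genes took 9.53% to 11.8% of reads in VEGF-C libraries and 6.70% to 10.2% in PBS libraries. Summed cardiomyocyte markers were between 3794110 and 4244990 normalized counts in VEGF-C hearts and between 2836060 and 3786130 in PBS hearts, with 0 of 9 genes past the threshold. Summed B cell markers were between 6428 and 18422 in VEGF-C hearts and between 13788 and 176885 in PBS hearts, with 5 of 8 lower. Macrophage markers were between 157300 and 220434 in VEGF-C hearts and between 154021 and 250054 in PBS hearts, with 0 of 9 past the threshold. Of the other marker lists, 0 of 8 T cell markers passed, 1 of 7 neutrophil markers was lower, and 1 each of 8 fibroblast, 8 blood endothelial and 7 lymphatic endothelial markers was higher. These measures moved with the groups to different degrees, and their part in the values below was not tested. In tissue RNA, fewer cells of a type and less RNA per cell cannot be told apart.

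Most of the 37 genes were lower in VEGF-C hearts. With limma on the deposited log2 values and an adjusted p under 0.05 over all genes, 25 were lower and 0 were higher, where 8.61% of all genes were lower and 7.05% higher. The shares over all genes depended on the scaling and on single libraries. With library totals 30 members were lower and 0 higher, beside 19.0% and 1.29% of all genes, and with upper-quartile factors 26 and 0, beside 10.2% and 4.23%. Without any 1 library between 22 and 24 members were lower, and the share of all genes lower was between 5.80% and 8.70% and that higher between 3.14% (without VEGF-C library 3) and 6.73%. At an unadjusted p under 0.05 the counts were 27 lower and 1 higher, the kinase gene Srpk2. The share of all genes at that threshold was not counted, so these counts have no background beside them. The authors' deposited table, by its adjusted p-value, has 26 lower and 0 higher (all genes: 11.4% and 10.2%). All 4 VEGF-C libraries lay below all 4 PBS libraries in 25 genes, where this held for 11.6% of all genes, and the groups overlapped in the other 12. Changes of at least 2-fold among the calls were seen in 7 members (all genes: 3.25% lower): Pnisr, Leng8, Srsf5, Ccnl2, Fam193b, Snrnp70 and Rsrp1. The median log2 fold change of the 37 was -0.38, from -1.43 to 0.21, beside a median of 0.00 over all genes and of 0.05 over coding genes with a mean of at least 1 CPM (reads scaled by the library total). Summed over the members, normalized counts were between 178827 and 220317 in VEGF-C hearts and between 292407 and 310359 in PBS hearts.

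**Figure D1:**
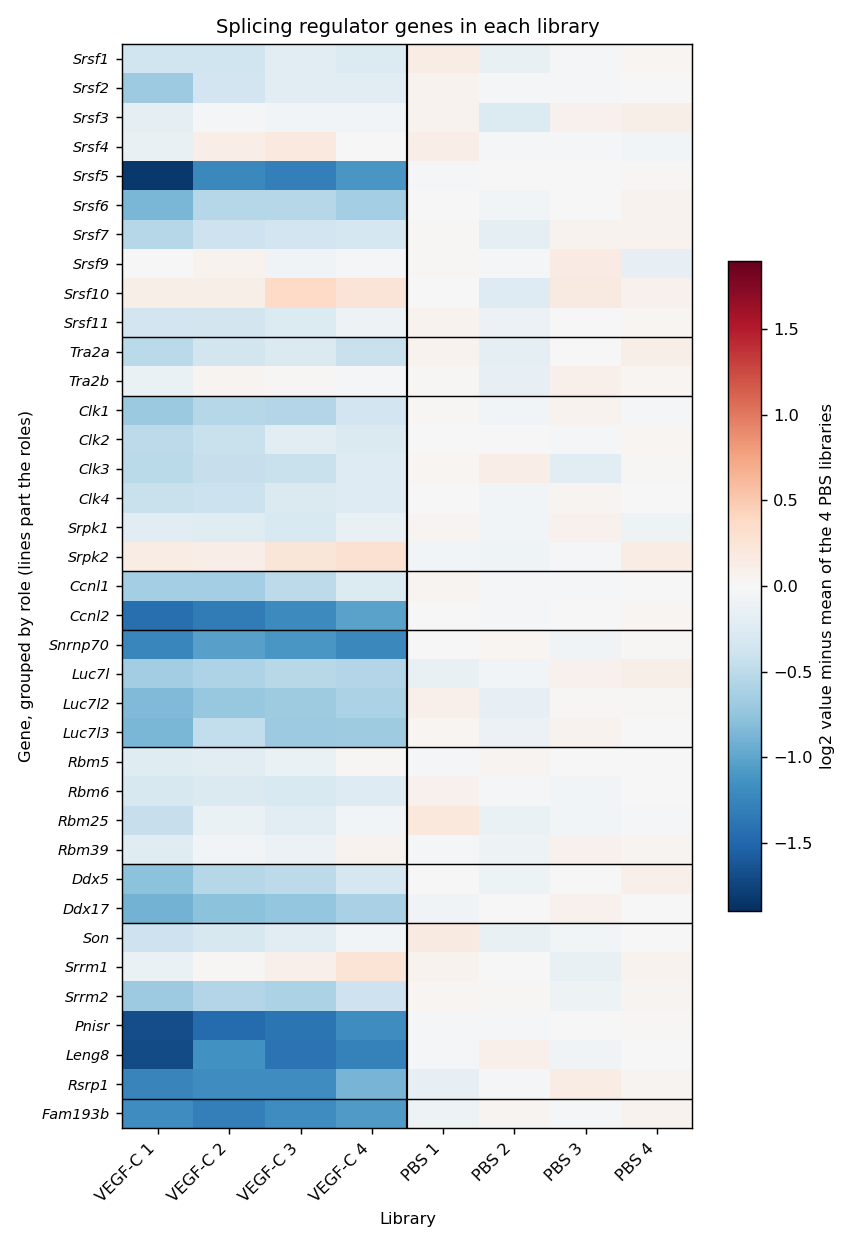
Log2 value of each gene in each library (columns) minus the mean of the 4 PBS libraries, with genes in rows grouped by role. The 4 VEGF-C columns are blue for most genes, deepest for Srsf5, Ccnl2, Snrnp70, Pnisr, Leng8, Rsrp1 and Fam193b, and near white or red for Srsf4, Srsf9, Srsf10, Srpk2 and Srrm1.

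Libraries within a group differed in the level of the members. In the VEGF-C group, library 1 was the lowest of the 4 in 32 of the 37 genes and library 4 the highest in 24. In the PBS group library 2 was the lowest in 18 genes and library 4 the highest in 13. The median SD of the members on the log2 scale was 0.12 in VEGF-C hearts and 0.08 in PBS hearts, against 0.14 and 0.15 for coding genes with a mean CPM of at least 1. The spread was larger in the VEGF-C group for 24 of the 37. Neither this count nor the order of the libraries was taken over all genes. A trait of whole libraries therefore cannot be told apart from one of the members.

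Promoter windows from RefSeq (GRCm38.p6, from 250 bases before to 50 after each annotated start) were found for 34 of the 37 genes, those of Clk1, Pnisr and Luc7l aside. Windows of 3 genes with a large decrease and of Srsf10, which was not lower, are shown to set the members side by side. They lie at chr7:45395693-45395992, minus strand (Snrnp70), chr4:155812239-155812538, plus strand (Ccnl2), chr12:80945249-80945548, plus strand (Srsf5) and chr4:135855821-135856120, plus strand (Srsf10), and capitals mark matches on either strand to the motifs described after them.

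Snrnp70: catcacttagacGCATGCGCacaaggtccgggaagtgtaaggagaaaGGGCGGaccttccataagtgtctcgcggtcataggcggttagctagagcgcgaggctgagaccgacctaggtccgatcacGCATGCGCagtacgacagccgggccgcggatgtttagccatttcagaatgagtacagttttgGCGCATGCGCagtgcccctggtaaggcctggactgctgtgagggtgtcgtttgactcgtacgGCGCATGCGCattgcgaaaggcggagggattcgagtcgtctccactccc

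Ccnl2: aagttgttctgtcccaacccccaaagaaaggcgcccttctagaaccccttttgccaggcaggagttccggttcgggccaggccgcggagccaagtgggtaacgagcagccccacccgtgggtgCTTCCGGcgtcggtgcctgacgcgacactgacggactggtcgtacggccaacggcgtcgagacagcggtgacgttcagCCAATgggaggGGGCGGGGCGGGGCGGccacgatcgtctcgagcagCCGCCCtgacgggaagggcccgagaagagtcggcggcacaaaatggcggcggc

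Srsf5: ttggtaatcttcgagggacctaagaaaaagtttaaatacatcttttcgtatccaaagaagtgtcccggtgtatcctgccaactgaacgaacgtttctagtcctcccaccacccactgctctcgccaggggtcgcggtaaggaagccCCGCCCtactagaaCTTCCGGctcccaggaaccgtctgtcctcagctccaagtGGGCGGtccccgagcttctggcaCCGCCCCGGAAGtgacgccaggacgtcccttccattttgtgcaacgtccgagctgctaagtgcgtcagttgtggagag

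Srsf10: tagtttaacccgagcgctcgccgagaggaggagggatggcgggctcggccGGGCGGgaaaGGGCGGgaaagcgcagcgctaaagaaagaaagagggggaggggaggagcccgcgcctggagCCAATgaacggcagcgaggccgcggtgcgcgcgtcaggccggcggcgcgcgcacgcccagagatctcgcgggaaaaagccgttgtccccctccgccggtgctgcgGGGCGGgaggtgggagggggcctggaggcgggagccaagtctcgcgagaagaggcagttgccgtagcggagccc

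The motifs searched on both strands were the GC box (GGGCGG), the CCAAT box (CCAAT), the TATA box (TATAAA), an ETS core (CCGGAAG), the CRE (TGACGTCA), an NRF1 core (GCATGCGC), the E-box (CACGTG) and a YY1 core (AAGATGGC). The GC box was in windows of 25 of the 34 member genes (73.5%), against 63.9% of the 12257 measured genes with a window, and the CCAAT box in 18 (52.9%), against 42.0%. The NRF1 core was in windows of 7 member genes (20.6%), against 5.26%: Clk4, Leng8, Rsrp1, Snrnp70, Srrm1, Srsf11 and Srsf7. Snrnp70 held 6 matches to it in 1 window, with those at bases 190 and 192, and at 252 and 254, overlapping, on opposite strands. The ETS core was in 9 member genes (26.5%, against 17.6%), the TATA box in 6 (17.6%, against 9.75%), the CRE in 3 (8.82%, against 3.27%), the E-box in 2 (5.88%, against 11.1%) and the YY1 core in 0, against 4.68%. Genes with several annotated starts have several windows, and a match is a run of letters, not a measured binding site. Member windows were richer in GC, with a median of 64.67% over 45 windows against 59.67% over all 15590. Of the motifs, the GC box, the ETS core, the NRF1 core and the E-box are rich in GC too. The part of GC content in these shares was not tested. The NRF1 core stood in genes that were lower and in Srrm1, which was not.

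Among the 10 SR protein genes the decrease was uneven, and Srsf5 stood out. Srsf5 had 4029, 6113, 5823 and 6620 normalized counts in VEGF-C hearts, against 14017, 14390, 14346 and 14502 in PBS hearts (ENSMUSG00000021134). Every VEGF-C heart held fewer than any PBS heart, at 39.4% of the PBS mean, with VEGF-C library 1 lowest and the PBS values close together; the log2 fold change was -1.37 ± 0.13 (SE). Srsf5 encodes a shuttling SR protein first described as an insulin-induced gene of regenerating liver in rats. Srsf6 had 4752, 5955, 5954 and 5528 normalized counts in VEGF-C hearts, against 8730, 8334, 8575 and 9028 in PBS hearts, a log2 fold change of -0.65 ± 0.08 without overlap. Srsf7 had 2248, 2498, 2539 and 2582 normalized counts in VEGF-C hearts, against 3334, 2920, 3439 and 3418 in PBS hearts, a difference of -0.41 ± 0.08, again with no overlap; its protein is an adaptor for the RNA export receptor NXF1. Srsf1 had 4317, 4349, 4918 and 4699 normalized counts in VEGF-C hearts, against 6184, 5103, 5523 and 5769 in PBS hearts. Srsf1, the founding SR protein, differed by -0.30 ± 0.08 on the log2 scale, and the groups came close to each other, PBS library 2 being the lowest of its group. Srsf2, whose protein is also called SC35, had a log2 fold change of -0.37 ± 0.10 and Srsf11 one of -0.27 ± 0.08. Srsf2 lay between 3241 and 4522 normalized counts in VEGF-C hearts and between 5049 and 5470 in PBS hearts, without overlap. Srsf11 lay between 3177 and 3806 normalized counts in VEGF-C hearts and between 3789 and 4271 in PBS hearts, with VEGF-C library 4 above PBS library 2. Leaving out single libraries ended the calls of these last 3 genes. Srsf1 did not pass without PBS library 1, 3 or 4 or VEGF-C library 1, 2 or 4, Srsf2 without any PBS library or VEGF-C library 1 or 2, and Srsf11 without PBS library 1, 3 or 4 or VEGF-C library 1, 2 or 3.

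The other 4 SR protein genes overlapped between the groups. Srsf9 had 1805, 1890, 1716 and 1782 normalized counts in VEGF-C hearts, against 1830, 1771, 2005 and 1622 in PBS hearts. All VEGF-C values lay inside the PBS range, with a log2 fold change of -0.004 ± 0.08. Srsf3, the smallest of the family, had a fold change of -0.08 ± 0.09 and Srsf4 of 0.04 ± 0.10, the sign of the last turning with library totals and with upper-quartile factors (-0.15 and -0.01). Srsf3 lay between 6300 and 7082 normalized counts in VEGF-C hearts and between 5981 and 7701 in PBS hearts, and PBS library 2 was below all VEGF-C libraries. Srsf4 lay between 598 and 753 normalized counts in VEGF-C hearts and between 636 and 723 in PBS hearts. Srsf10 had 2763, 2750, 3304 and 3036 normalized counts in VEGF-C hearts, against 2524, 2159, 2865 and 2704 in PBS hearts. Srsf10, whose protein becomes a repressor of splicing when it is dephosphorylated, had the only fold change among the SR proteins above 0.2 (0.21 ± 0.10), with the lower VEGF-C libraries inside the PBS range. Of the 2 Tra2 genes, which bind purine-rich exonic enhancers, Tra2a was lower (-0.38 ± 0.08) and Tra2b was not (-0.02 ± 0.08). Tra2a had 2108, 2356, 2483 and 2240 normalized counts in VEGF-C hearts, against 3134, 2665, 2986 and 3225 in PBS hearts, with no overlap. Tra2b had 3373, 3807, 3714 and 3632 normalized counts in VEGF-C hearts, against 3731, 3302, 3915 and 3778 in PBS hearts, where the groups overlapped.

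**Figure D2:**
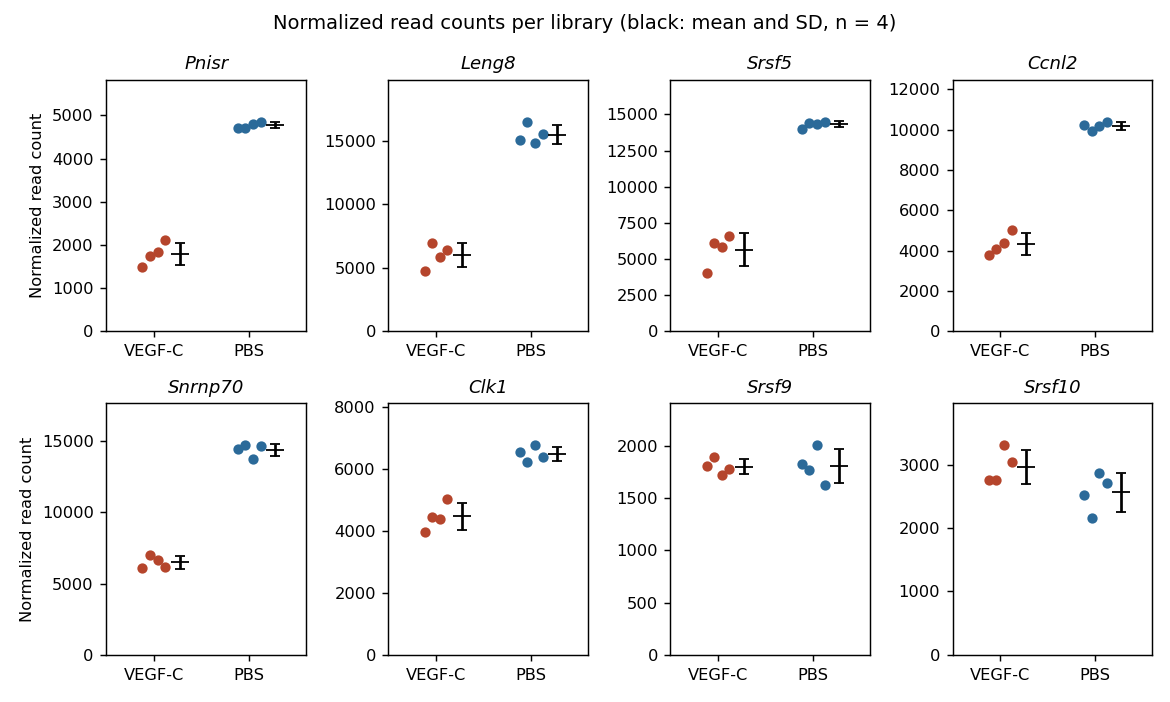
Normalized read counts (vertical axis, from 0) of 8 genes in each VEGF-C library (left, red) and each PBS library (right, blue), with the mean and SD of 4 libraries in black. In the first 6 panels all VEGF-C points lie below all PBS points, while those of Srsf9 and Srsf10 overlap.

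Per kilobase of exon the leading SR protein gene stood apart in PBS hearts and not in VEGF-C hearts. Exon length counts every base that is exon in any annotated transcript of the gene, retained-intron and decay transcripts included. Ranks and shares per kb, here and below, therefore depend on how many transcripts are annotated for each gene. In PBS hearts Srsf5 stood at 3589 normalized counts per kb, above Srsf6 at 1802 and Srsf2 at 1761, and its lowest PBS library (3515) was above the highest of those 2 genes (1877). In VEGF-C hearts Srsf5 stood at 1416 and Srsf2 at 1378, and their libraries overlapped (1010 to 1660 for Srsf5 and 1096 to 1529 for Srsf2). As a share of the summed level per kb of the 10 genes, Srsf5 took 16.7% ± 2.10 in VEGF-C hearts and 29.7% ± 1.15 in PBS hearts (SD, n = 4). The share of Srsf10 was 5.05% ± 0.41 in VEGF-C hearts and 3.02% ± 0.29 in PBS hearts, and that of Srsf9 was 13.0% ± 1.42 in VEGF-C hearts and 9.03% ± 0.78 in PBS hearts. Srsf6 also had a lower share, 13.7% ± 0.65 in VEGF-C hearts and 14.9% ± 0.34 in PBS hearts, without overlap between the groups. Shares add up to a whole, so they are not independent of one another.

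**Figure D3:**
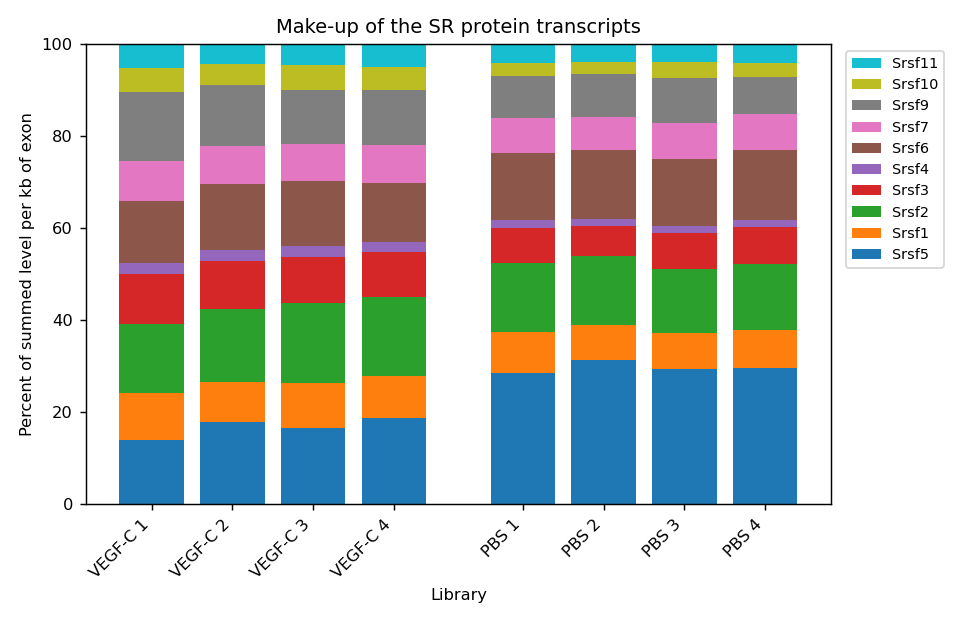
Share of each of 10 SR protein genes (colours) in their summed level per kb of exon, in percent, for each VEGF-C library (left bars) and each PBS library (right bars). The Srsf5 segment at the base is between 13.8% and 18.6% in VEGF-C libraries and between 28.5% and 31.2% in PBS libraries.

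All 4 CLK kinase genes were lower, by less than the most affected SR protein gene. Clk1 had 3974, 4460, 4393 and 5035 normalized counts in VEGF-C hearts, against 6554, 6236, 6757 and 6397 in PBS hearts. No VEGF-C heart reached the PBS range, and the log2 fold change was -0.54 ± 0.08. Clk1 is known for introns that are kept in its nuclear transcripts and spliced on demand. Clk4 had 1937, 1954, 2148 and 2205 normalized counts in VEGF-C hearts, against 2601, 2502, 2705 and 2624 in PBS hearts, a log2 fold change of -0.34 ± 0.07. Clk4, the closest relative of Clk1, and Clk2 (-0.35 ± 0.08) and Clk3 (-0.41 ± 0.09) also had no overlap between the groups. Clk3 had 1908, 1999, 2021 and 2282 normalized counts in VEGF-C hearts, against 2803, 2978, 2367 and 2764 in PBS hearts. Clk2 had 1577, 1659, 1926 and 1849 normalized counts in VEGF-C hearts, against 2224, 2228, 2174 and 2295 in PBS hearts. The gap between the groups is narrowest in Clk3, where PBS library 3 lies near VEGF-C library 4. Within the CLK family the share of Clk1 in the summed level per kb was 37.1% ± 1.31 in VEGF-C hearts and 40.1% ± 1.28 in PBS hearts (SD, n = 4), lower in every VEGF-C library than in any PBS library. The share of Clk4 was 24.1% ± 0.68 in VEGF-C hearts and 22.6% ± 0.66 in PBS hearts. The groups all but touched, at 23.485% in the lowest VEGF-C library and 23.474% in the highest PBS library.

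Neither gene of the SRPK kinases, which act on the same RS domains from the cytoplasm, passed the threshold. Srpk1 had 2522, 2476, 2392 and 2627 normalized counts in VEGF-C hearts, against 3020, 2809, 3096 and 2732 in PBS hearts. The groups of Srpk1 did not overlap, yet its fold change of -0.22 ± 0.07 did not pass, while it passed with library totals, with upper-quartile factors and in the authors' deposited table. Srpk2 had 2915, 2888, 3101 and 3239 normalized counts in VEGF-C hearts, against 2553, 2490, 2610 and 2917 in PBS hearts. Srpk2 had a positive fold change, 0.20 ± 0.08, that did not pass, with VEGF-C libraries 1 and 2 below PBS library 4.

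Cyclins L1 and L2 are partners of the speckle kinase CDK11, and both genes were lower. Ccnl2 had 3782, 4070, 4383 and 5028 normalized counts in VEGF-C hearts, against 10216, 9943, 10182 and 10400 in PBS hearts. The VEGF-C mean was 42.4% of the PBS mean, a log2 fold change of -1.25 ± 0.09, and the VEGF-C libraries spread more widely than the PBS libraries. Ccnl1 had 1772, 1778, 1974 and 2330 normalized counts in VEGF-C hearts, against 2887, 2738, 2710 and 2773 in PBS hearts, a log2 fold change of -0.51 ± 0.09 with no overlap.

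**Figure D4:**
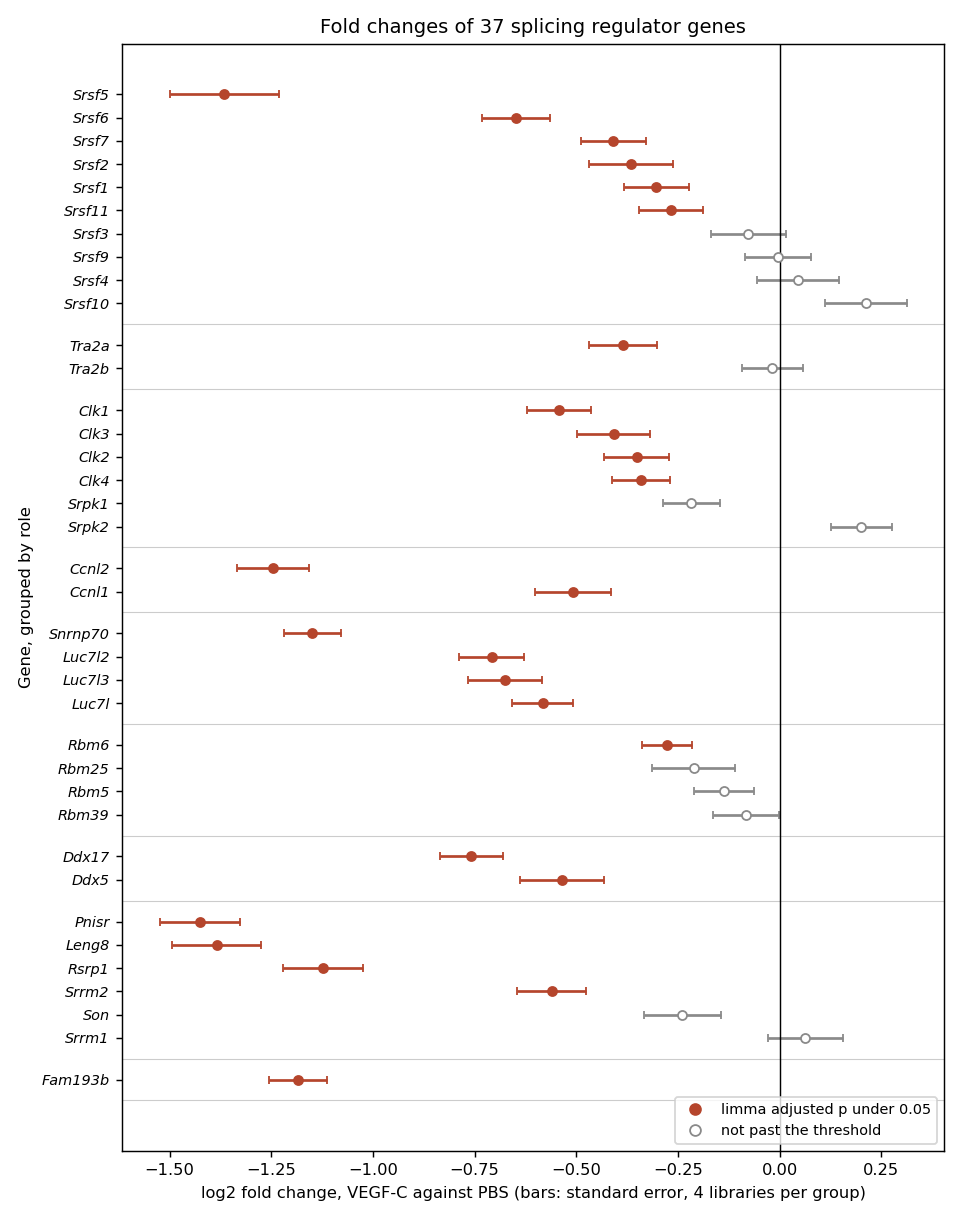
Log2 fold change of VEGF-C against PBS for each of the 37 genes, grouped by role from SR proteins at the top to Fam193b at the bottom, with bars for the standard error. Filled red points passed a limma adjusted p of 0.05 and all lie left of 0, from Pnisr at -1.43 to Srsf11 at -0.27.

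The U1 particle, which recognises the 5′ splice site, was represented by Snrnp70 and by 3 Luc7-like genes, relatives of a yeast U1 protein, and all 4 were lower. Snrnp70 had 6082, 7013, 6672 and 6154 normalized counts in VEGF-C hearts, against 14448, 14690, 13711 and 14611 in PBS hearts (ENSMUSG00000063511). The groups stood far apart, at 45.1% of the PBS mean and -1.15 ± 0.07 on the log2 scale. Luc7l2 had 4640, 5016, 5194 and 5475 normalized counts in VEGF-C hearts, against 8897, 7433, 8449 and 8450 in PBS hearts. Luc7l3 had 2226, 2964, 2535 and 2560 normalized counts in VEGF-C hearts, against 4187, 3778, 4277 and 4115 in PBS hearts. Luc7l had 2235, 2356, 2433 and 2385 normalized counts in VEGF-C hearts, against 3185, 3410, 3735 and 3803 in PBS hearts. In each of the 3 the highest VEGF-C heart was below the lowest PBS heart, with log2 fold changes of -0.71 ± 0.08, -0.67 ± 0.09 and -0.58 ± 0.08 in this order.

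The DEAD-box helicases Ddx5 and Ddx17, close relatives that unwind RNA in splicing and serve as transcriptional cofactors, were lower too. Per kb of exon Ddx5 was the most abundant of the 37 genes, at 4820 in VEGF-C hearts and 6953 in PBS hearts. Ddx5 had 23395, 27430, 28501 and 32018 normalized counts in VEGF-C hearts, against 40172, 37371, 40062 and 43002 in PBS hearts. Ddx17 had 10369, 11176, 11538 and 12575 normalized counts in VEGF-C hearts, against 18388, 19103, 20315 and 19308 in PBS hearts. The groups did not overlap in either gene, with log2 fold changes of -0.54 ± 0.10 for Ddx5 and -0.76 ± 0.08 for Ddx17.

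Of 4 RNA-binding motif genes 1 was lower and 3 did not pass. Rbm6 had 2661, 2733, 2691 and 2783 normalized counts in VEGF-C hearts, against 3470, 3194, 3188 and 3323 in PBS hearts. Rbm6 was lower, -0.28 ± 0.06, and its call was lost without VEGF-C library 3. Rbm39 had 8176, 9193, 8843 and 10068 normalized counts in VEGF-C hearts, against 9372, 8932, 10089 and 9970 in PBS hearts. Rbm39, a relative of the splicing factor U2AF, overlapped between the groups (-0.08 ± 0.08), as did Rbm5 (-0.14 ± 0.07) and Rbm25 (-0.21 ± 0.10), a protein that associates with the U1 particle. Rbm5 had 5497, 5596, 5923 and 6603 normalized counts in VEGF-C hearts, against 6287, 6738, 6422 and 6463 in PBS hearts. Rbm25 had 3093, 3837, 3624 and 4054 normalized counts in VEGF-C hearts, against 4857, 3843, 4071 and 4127 in PBS hearts. With library totals all 3 passed as lower, at -0.27 for Rbm39, -0.33 for Rbm5 and -0.40 for Rbm25, under a scaling that moved the median of all genes by -0.19.

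Of 6 speckle genes 4 were lower, among them Pnisr and Leng8 with the lowest fold changes of the 37, and 2 did not pass. Pnisr had 1482, 1732, 1826 and 2110 normalized counts in VEGF-C hearts, against 4712, 4717, 4800 and 4854 in PBS hearts (ENSMUSG00000028248). Pnisr, an SR-related protein that binds pinin, was at 37.5% of the PBS mean, with a log2 fold change of -1.43 ± 0.10 and PBS values within a narrow band. Leng8 had 4744, 6938, 5862 and 6370 normalized counts in VEGF-C hearts, against 15056, 16487, 14814 and 15538 in PBS hearts (ENSMUSG00000035545). Rsrp1 had 8963, 9424, 9493 and 11663 normalized counts in VEGF-C hearts, against 19298, 20894, 23581 and 22140 in PBS hearts. Leng8 (-1.38 ± 0.11) and Rsrp1, a small protein rich in arginine and serine (-1.12 ± 0.10), left no overlap between the groups. Per kb Rsrp1 was second to Ddx5 among the 37 genes in both groups, at 2952 in VEGF-C hearts and 6413 in PBS hearts. Pnisr was last among the 37 in VEGF-C hearts and 23rd in PBS hearts.

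The scaffolds of the speckle differed from one another. Srrm2 had 19342, 21225, 20625 and 23697 normalized counts in VEGF-C hearts, against 32060, 31600, 29059 and 32280 in PBS hearts. Srrm2, a core scaffold of speckles, was lower without overlap (-0.56 ± 0.08). Son had 9487, 10130, 10860 and 12042 normalized counts in VEGF-C hearts, against 14129, 11380, 12120 and 12545 in PBS hearts. Son, the other core scaffold, had overlapping groups and -0.24 ± 0.09, which passed with library totals (-0.43). Srrm1 had 5169, 5743, 6073 and 6806 normalized counts in VEGF-C hearts, against 5939, 5651, 5145 and 5956 in PBS hearts. For Srrm1, a splicing coactivator, the values overlapped (0.06 ± 0.09), and the sign turned with library totals (-0.13). Fam193b had 2169, 2007, 2188 and 2334 normalized counts in VEGF-C hearts, against 4641, 5095, 4870 and 5170 in PBS hearts. The 2 ranges of Fam193b lay far apart, with a log2 fold change of -1.18 ± 0.07. Neat1 and Malat1, the noncoding RNAs of paraspeckles and speckles, were lower in the same hearts, with log2 fold changes of -2.20 ± 0.09 for Neat1 and -0.89 ± 0.18 for Malat1. Malat1 had 9670, 10529, 11774 and 9247 normalized counts in VEGF-C hearts, against 26931, 16855, 21237 and 13530 in PBS hearts.

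Most of the 37 genes have annotated decay or retained-intron transcripts. The coding genes set beside them here were not matched to them by abundance. In the GENCODE M21 annotation 32 of the 37 (86.5%) have at least 1 transcript classed as a target of nonsense-mediated decay, against 27.8% of 13239 coding genes with a mean CPM of at least 1. At least 1 retained-intron transcript is annotated for 33 of them (89.2%), against 58.0%, with a median of 3 per member. Rbm5 has 13, Srsf11 has 11 and Snrnp70 has 9. The 5 genes with no decay transcript (Leng8, Rsrp1, Fam193b, Ddx17 and Srsf10) had a median log2 fold change of -1.12, with 4 lower. The 13 genes with 1 had -0.41 with 10 lower, and the 12 genes with 2 had -0.33 with 7 lower. The 7 genes with 3 or more had -0.27, with 4 lower. Over the coding genes the share lower ran the other way, at 6.53% with none and 16.3% with 3 or more. The deposited values are counts per gene, so reads of coding, decay and retained-intron transcripts cannot be told apart.

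Most members were abundant genes. Coding genes with a mean CPM of 65.1 or more had a median log2 fold change of 0.18, with 2.83% lower and 22.8% higher. Those between 31.8 and 65.1 CPM had a median of 0.10, with 5.85% lower and 13.5% higher. The 18 members in the upper range had a median of -0.55 with 13 lower, and the 16 in the next one -0.36 with 11 lower. The GC content of the longest coding transcript gave a smaller trend in the median, at 0.07 in coding genes of up to 44.4% GC and 0.02 in those above 56.0%. The share lower was 5.33% in the former and 11.3% in the latter. Of the members 16 lay in the lower range, with a median of -0.36, and 6 in the upper, with -0.78.

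Among other splicing regulators the balance of lower and higher genes depended on the scaling. Of 119 further genes in 6 lists, 116 had values: 22 were lower and 16 higher at a limma adjusted p under 0.05, with a median log2 fold change of 0.05. All genes had 8.61% lower and 7.05% higher. Shares differed with abundance: coding genes with a mean CPM of 65.1 or more had 2.83% lower and 22.8% higher. Those between 31.8 and 65.1 CPM had 5.85% lower and 13.5% higher. The 116 genes were not matched to others by abundance. With library totals 38 of the 116 were lower and 4 higher, with a median of -0.14, and with upper-quartile factors 27 were lower and 14 higher, with a median of -0.00. Srsf12, U2af1l4 and Qki had no values under these symbols.

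Of 23 other RS-domain factors 5 were lower and 2 higher, with a median of 0.01 (10 and 0 with library totals). Arglu1, an SR-related coactivator with a known retained intron, had 2440 ± 197 normalized counts in VEGF-C hearts and 4447 ± 201 in PBS hearts (SD, n = 4), a difference of -0.87 ± 0.08 on the log2 scale (limma adjusted p = 0.000177). Pnn, the pinin that binds Pnisr, was lower at -0.66 ± 0.09 on the log2 scale (limma adjusted p = 0.00197), and Sugp2 at -0.48 ± 0.07 (0.00272). Cherp was higher, with 3516 ± 145 normalized counts in VEGF-C hearts and 2631 ± 307 in PBS hearts and 0.42 ± 0.09 (limma adjusted p = 0.0134), a call lost with library totals (0.0713). The abundant factors Acin1 (-0.11 ± 0.07) and Thrap3 (0.05 ± 0.08) did not pass, though Acin1 passed as lower with library totals.

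Kinases, cyclins and phosphatases of splicing factors outside the 37 genes were tested next. Of 19 such genes 3 were lower and 5 higher, with a median of 0.22 (4 and 2 with library totals). Ccnk, the partner cyclin of CDK12 and CDK13, was higher, with 3172 ± 191 normalized counts in VEGF-C hearts and 2229 ± 211 in PBS hearts and 0.51 ± 0.09 (limma adjusted p = 0.00467). Dyrk1a, a kinase that acts on SR proteins, was higher by 0.43 ± 0.08 (0.00634) and Ppp1ca, a catalytic subunit of protein phosphatase 1, by 0.33 ± 0.07 (0.0158; 0.224 with library totals). Prpf4b, a kinase of the spliceosome, was lower at -0.51 ± 0.09 (0.00673). Hipk3 (0.37 ± 0.11) and Ppp1cb (0.39 ± 0.13) did not pass, but both did without PBS library 1 and in the authors' deposited table.

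Another list of 33 genes held hnRNPs, which often oppose SR proteins, and further RNA-binding proteins. Of the 33 genes 7 were lower and 4 higher, with a median of 0.01 (13 and 1 with library totals). Those lower with the smallest p-values were Tial1 (-0.52 ± 0.08, limma adjusted p = 0.00246), Ewsr1 (-0.49 ± 0.07, 0.00276) and Hnrnpdl (-0.51 ± 0.09, 0.00592). Pcbp2, a binder of C-rich RNA, was higher, with 13876 ± 205 normalized counts in VEGF-C hearts and 10301 ± 310 in PBS hearts and 0.43 ± 0.06 (limma adjusted p = 0.00203). Hnrnpa2b1 (-0.18 ± 0.08) and Hnrnpu (-0.02 ± 0.06), the most abundant that did not pass, passed as lower with library totals.

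Muscle and heart splicing regulators had positive fold changes in all 10 genes with values, though 5 of the 10 turned negative with library totals and 1 with upper-quartile factors. Of the 10 genes 4 passed as higher and 0 as lower (4 and 0 in the authors' deposited table). At an unadjusted p under 0.05, where the share of all genes was not counted, 5 were higher and 0 lower. Rbm38 had 6965 ± 250 normalized counts in VEGF-C hearts and 4346 ± 568 in PBS hearts, 0.69 ± 0.09 on the log2 scale (limma adjusted p = 0.0018). Rbm24, needed for sarcomere assembly, was higher by 0.46 ± 0.10 (0.0161), Rbpms by 0.34 ± 0.08 (0.0238) and Mbnl2 by 0.37 ± 0.09 (0.0264). Rbm20, the regulator of titin splicing, had 0.08 ± 0.10 and Rbfox2 0.005 ± 0.08, and neither passed. With library totals Rbm24, Rbpms and Mbnl2 did not pass (limma adjusted p = 0.0776, 0.198 and 0.204). Rbpms was also lost without VEGF-C library 2, 3 or 4 (up to 0.0612), and Mbnl2 without PBS library 2 or 4 or VEGF-C library 3 or 4 (up to 0.0672). Every VEGF-C heart had a higher sum of cardiomyocyte markers than any PBS heart, but narrowly (3794110 against 3786130 in the nearest libraries). Of the 9 markers 0 passed, and their part in these values was not tested.

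Of 25 genes of nonsense-mediated decay, the exon junction complex and nuclear export, 6 were lower and 1 was higher, with a median of -0.03 (9 and 0 with library totals). Zfc3h1, which joins nuclear polyadenylated RNA to the exosome, had 1118 ± 139 normalized counts in VEGF-C hearts and 2402 ± 308 in PBS hearts, a difference of -1.10 ± 0.12 on the log2 scale (limma adjusted p = 0.000527). Pabpn1, the nuclear poly(A)-binding protein that works with it, was lower at -1.05 ± 0.15 (0.00251), the export receptor Nxf1 at -0.80 ± 0.09 (0.00066) and the decay factor Upf3b at -0.71 ± 0.11 (0.00325). The decay factor Smg5 (-0.13 ± 0.08) did not pass, though it passed as lower with library totals. Eif4a3, a core protein of the exon junction complex named here as the only gene of the list that was higher, had 0.30 ± 0.06 (0.0127). Among 6 other proteins of the U1 particle, set beside Snrnp70, 1 was lower and 0 were higher (2 and 0 with library totals, 2 and 1 in the authors' deposited table). The lower gene was Prpf40b (-0.48 ± 0.09, limma adjusted p = 0.00803), and Snrpa (0.07 ± 0.09) did not pass. At an unadjusted p under 0.05, where the share of all genes was not counted, 2 of the 6 were lower and 2 higher.

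**Figure D5:**
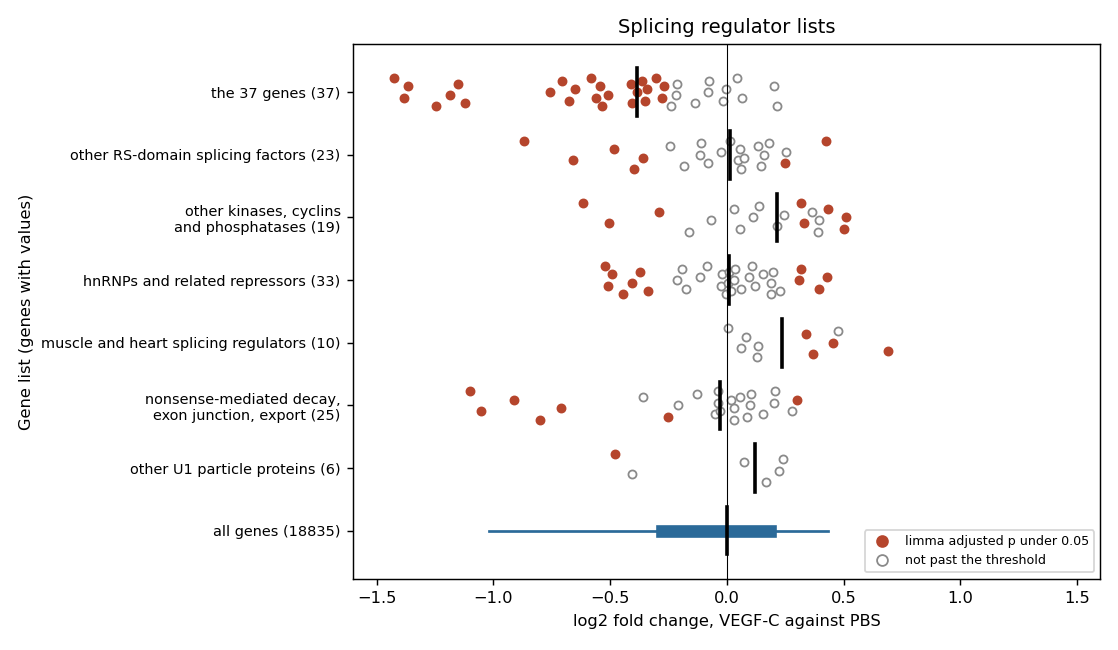
Log2 fold change of VEGF-C against PBS (horizontal axis) for the 37 genes and for 6 lists of other splicing regulators, with filled red points past a limma adjusted p of 0.05 and a black bar at each median. For all 18835 genes the bottom row gives the 25th to 75th percentile as a thick bar and the range from the 5th to the 95th percentile (-1.02 to 0.43) as a thin one; the median of the 37 genes is -0.38 and those of the 6 lists lie between -0.03 and 0.24.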

How the data were processed

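Stranded mRNA libraries of heart RNA were sequenced on an Illumina NovaSeq, per the labels' protocols. The submitters' processing notes name the build GRCm39 and, in no stated order, DESeq2 1.38.3, STAR 2.7.10a, Subread 2.0.1, featureCounts and Trim Galore 0.6.10. Annotation release, strand setting and filter: not given in the sources used here. Log2 values were deposited by the authors for 18835 of 56941 genes, with a log2 fold change and an adjusted p-value (missing for 23 genes). Each deposited log2 value is log2(reads divided by a library factor, plus 4): all came out as whole reads within 0.01, and the factors equalled median-of-ratios factors. "Normalized counts" are these values without the log and the added 4.

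Libraries carry the numbers of the deposited columns, which could not be matched to single animals; p-values measure the spread between these samples. Limma 3.58.1 (R 4.3.3) was fitted to the log2 values of all genes with treatment as the only factor, a trend of the variance on abundance and 6 residual degrees of freedom. P-values were two-sided and adjusted by the Benjamini-Hochberg method over the 18835 genes, and a gene passed under 0.05. Fold changes set VEGF-C over PBS on the log2(x + 4) scale, ± the standard error. The fit was tested on simulated data. Members, lists and tests were chosen with earlier results of these data known. Alternatives were other scaling factors, voom weights, a pseudocount of 1, a CPM filter, a robust fit, the authors' adjusted p-value and leaving out each library. Genes of the other lists are named where they have one of the 4 smallest p-values past the threshold in their list, or are one of the 2 most abundant that did not pass; some are not reported here. Exon lengths, GC content and transcript classes came from GENCODE M21 (GRCm38) by gene ID, which matched 18472 genes (98.1%) and all 37 members. Reads of overlapping or antisense genes may be shared.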

Additional observations from a re-analysis of the deposited data

Results flagged for a closer look

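In the PBS group, library 2 had a log2 value of 12.55 for Srsf3, while the other 3 libraries of the group lay between 12.88 and 12.91. For Srsf4, PBS library 1 stood at 9.51, apart from the others between 9.32 and 9.34. Both were singled out because the gap to the nearest library took most of the range of the 4 PBS libraries. Chance singles out about 1 in 20 groups, and 136 groups were looked at.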

How the results depend on the processing

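Of the 25 members called lower, 21 kept the call and the direction in all 16 alternatives and 0 changed direction; the 4 others lost it only when single libraries were left out. The number of members lower was between 22 and 24 without any 1 library and 25 to 30 in the 8 other alternatives. With library totals, 3572 genes were lower and 243 higher, and among the other splicing regulators 38 were lower and 4 higher. With upper-quartile factors 797 genes were higher. Without any 1 library, the number of genes higher was between 591 and 1268, the number lower between 1093 and 1638, that of other splicing regulators higher between 11 and 17 and lower between 16 and 20.

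Library totals turned the sign of 2 members and of 40 of the 116 other splicing regulators, and upper-quartile factors that of 1 and 14; the shift of the median of all genes was -0.19 and -0.05. Among the members and the other genes named in the text, those that changed sign had not passed. With library totals they were Srsf4 (-0.15), Srrm1 (-0.13), Thrap3 (-0.14), Rbm20 (-0.11), Rbfox2 (-0.19) and Snrpa (-0.12). With upper-quartile factors they were Srsf4 (-0.011), Thrap3 (-0.0012) and Rbfox2 (-0.050), and in the authors' deposited table Rbfox2 (-0.00046). Without any 1 library, fold changes lay between -0.0036 and 0.11 for Srsf4, between -0.054 and 0.047 for Srsf9, between -0.069 and 0.017 for Tra2b, between -0.0035 and 0.13 for Srrm1 and between -0.058 and 0.047 for Rbfox2.

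No paired analysis was possible because no animal number is shared by the groups, and the numbers of the columns could not be matched to animals.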

Other observations

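Across all coding genes with a mean CPM of at least 1, the share called lower differed with the transcript classes annotated for a gene. Of 521 genes with 3 or more transcripts classed for nonsense-mediated decay, 16.3% were lower, while of 9559 genes with none 6.53% were lower. The shares lower were 10.1% of 2323 genes with 1 such transcript and 13.0% of 836 genes with 2. For retained introns, 13.5% of 2832 genes with 3 or more such transcripts were lower and 7.24% higher, and 5.42% of 5558 genes with none were lower and 9.75% higher. The median log2 fold changes of the extreme classes lay close together, at -0.03 and 0.06 for decay transcripts and at 0.01 and 0.06 for retained introns. No test was run on these shares.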
